A study of Mus musculus with 22 samples.

Results

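CD11b+ cells from the brains of 4 pups with hypoxic-ischemic encephalopathy (HIE) and 4 control pups were compared on P7, the day after hypoxia. These 8 libraries were taken from the 22 bulk RNA sequencing samples of the series by treatment label and by the table that holds the earlier collection. In each pup, CD11b, an integrin subunit on microglia and other myeloid cells, was used to pull cells from the dissociated whole brain with magnetic beads, and total RNA without ribosomal RNA was sequenced. The mice were CF-1, an outbred stock. For the HIE group (pups N5-3, N5-4, N8-3 and N8-4), the dam had been injected with lipopolysaccharide (LPS), the endotoxin of Gram-negative bacteria, on E18, and the pup went through progressive hypoxia on P6. By the study's methods, the control group (P6H63-7, P6H63-8, P6H55-7 and P6H55-12) was handled with saline and normoxia. The model therefore joins both insults, and neither can be told apart from the other in these pups.

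Several properties of the libraries bear on every comparison. All HIE pups are labelled male, and each control pair holds a pup labelled male and a pup labelled female. Sex by label is therefore not balanced between the treatments. The name prefixes are not defined in the labels, pups of 1 prefix belong to 1 treatment, and a difference between prefixes cannot be told apart from treatment. Nothing in the labels says whether pups that share a prefix are littermates, and the p-values measure the spread between these pups. The HIE pups carry the labelled day 7 and the 4 controls the days 8, 9, 10 and 11, whereas the study's methods give P7, which was used here, so that age is a further difference that was not tested. Total counts lay between 70191584 and 83469067 per library, and 3 counts corresponded to 0.0359 to 0.0427 CPM, the count scaled to library size.

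Libraries of 2 kinds stood apart. In the first, the P6H63 pair held few microglia: the 16 microglia purity markers summed to 1340 to 2100 CPM there, to 12400 to 13900 CPM in the P6H55 pair and to 15100 to 17700 CPM in the HIE pups. Itgam, the gene of CD11b, had 952, 1109, 886 and 835 CPM in the HIE pups, 787 and 799 CPM in the P6H55 pair and 95.7 and 65.5 CPM in the P6H63 pair. P2ry12, a purinergic receptor that marks resting microglia, had 2067 to 2752 CPM in the HIE pups, 2019 and 1940 CPM in the P6H55 pair and 234 and 143 CPM in the P6H63 pair. Fewer cells of a type and less RNA per cell cannot be told apart in bulk libraries. The rule for groups below asks for a difference from both control pairs. For higher microglial genes its P6H63 condition adds little, because that pair is already low in such genes. The purity markers had a median log2 difference of 3.3 from the P6H63 pair and 0.329 from the P6H55 pair. Higher members in the lists of microglial genes below therefore rest mainly on the 2 P6H55 pups. Single values are given mainly against the P6H55 pair, which is nearer to the HIE pups in these markers.

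The second kind went against its sex label. Pup N5-3, labelled male, had 2380 CPM of Xist, the RNA that silences one X chromosome in females, and a summed count of 2 over 4 Y-linked genes. Pup P6H55-12, labelled female, had 20 counts of Xist and a count of 0 for the same Y-linked genes. P6H63-8 (female) had 1380 CPM of Xist, and the other 5 pups had Y-linked transcripts and Xist of at most 0.802 CPM. Values without N5-3 and P6H55-12 are given below for the counts of genes, some called genes and the choroid plexus list. Other values are not given without these 2 pups and may change too.

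Microglia are the resident macrophages of the brain. They sense bacterial products through Toll-like receptors, which switch on NF-kB and interferon target genes, and restrain that response through inhibitory receptors such as the CD33-related Siglecs. In the first postnatal week a subset along developing fibre tracts carries genes of phagocytosis and growth factor release that reappear in microglia of injured or degenerating brain.

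The promoters of the 3 protein-coding genes with the largest rise among those called against all controls are shown first, because the values below turn on these genes. Each is the 250 bases before the start of the canonical transcript in GRCm39 (GENCODE M39), 5′ to 3′ on the gene's strand. Siglece lies at chr7:43309608-43309857 (minus strand), Slpi at chr2:164198428-164198677 (minus) and Ly6e at chr15:74826610-74826859 (plus). Capitals mark matches to any of 4 short motifs searched on both strands.
Siglece: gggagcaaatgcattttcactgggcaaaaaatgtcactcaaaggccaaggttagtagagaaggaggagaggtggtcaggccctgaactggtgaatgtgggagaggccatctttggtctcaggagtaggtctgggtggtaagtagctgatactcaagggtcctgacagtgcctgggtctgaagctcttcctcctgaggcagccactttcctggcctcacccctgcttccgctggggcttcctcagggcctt
Slpi: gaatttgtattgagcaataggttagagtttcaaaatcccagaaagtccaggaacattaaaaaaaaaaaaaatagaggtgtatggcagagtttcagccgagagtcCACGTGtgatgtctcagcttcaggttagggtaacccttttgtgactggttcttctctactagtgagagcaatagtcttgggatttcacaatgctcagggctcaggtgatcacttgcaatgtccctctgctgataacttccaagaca
Ly6e: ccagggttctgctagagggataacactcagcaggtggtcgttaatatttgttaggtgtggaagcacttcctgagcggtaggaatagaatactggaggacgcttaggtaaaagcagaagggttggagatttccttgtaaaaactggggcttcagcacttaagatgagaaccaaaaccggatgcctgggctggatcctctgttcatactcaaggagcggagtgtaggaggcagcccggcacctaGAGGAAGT
The motifs were GAGGAAGT for PU.1, the myeloid master regulator, GAAANNGAA for interferon response factors, GGGANNTTC for NF-kB and CACGTG for the E-box. Ly6e held the PU.1 motif at position -8 and Slpi an E-box at position -146, counted backwards from the transcript start, and the window of Siglece held no match.

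With the quasi-likelihood test of edgeR, 15 of 22517 tested genes differed between HIE and all controls at an adjusted p under 0.05. There were 5 higher (0.0222%) and 10 lower (0.0444%). Against the P6H55 pair 8 genes rose (0.0355%) and 12 fell (0.0533%). Against the microglia-poor P6H63 pair 5883 rose (26.1%) and 7129 fell (31.7%). The same direction against both pairs was called for 19 genes, 8 higher (0.0355%) and 11 lower (0.0489%), and 14 of the 15 were among them. The higher ones were Siglece, Slpi, Gpx3, Rcbtb2, Klf10, Kcnma1, Rps3a1 and the non-coding Gm16589, and the lower ones Acer2, Itih5, Cwc22 with 6 of its copies, Rps3a2 and Rps3a3.

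These counts depended on 1 library and on the tool. Without the control pup P6H55-7, 5588 genes were called against all controls, 1643 against the remaining P6H55 pup, which is then assumed to vary like the other groups, and 832 against both. With DESeq2, 405 genes rose (1.8%) and 270 fell (1.2%) against both pairs, and these 675 included all 19. Without N5-3 and P6H55-12 the quasi-likelihood test called 5 genes against all controls and 14 against both pairs.

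Siglece, an inhibitory sialic acid receptor of myeloid cells, showed the largest rise among the protein-coding genes called. It had 16.4, 18.2, 16.6 and 16.9 CPM in the HIE pups, 0.259 and 0.358 CPM in the P6H55 pair and 0.224 and 0.43 CPM in the P6H63 pair. The lowest HIE pup thus lay far above the highest control, and the HIE pups differed little among themselves (17 ± 0.788 CPM, SD, n = 4; controls 0.318 ± 0.0939 CPM, n = 4). The difference was 5.73 ± 0.234 (log2, SE) against all controls (edgeR adjusted p = 0.000131) and 5.77 ± 0.27 against the P6H55 pair (edgeR adjusted p = 4.83e-05). It passed the threshold without any one pup and without both N5-3 and P6H55-12. On P14, in a table scaled separately, Siglece had 14.4 CPM in 1 of 4 HIE animals and 0.195 to 0.21 CPM in the other HIE animals, beside 0.093 to 0.355 CPM in the controls and 0.027 to 0.254 CPM in the hypoxia group. The related receptor Cd22 had 23, 19.7, 23.1 and 24.3 CPM in the HIE pups, 12.6 and 8.44 CPM in the P6H55 pair and 3.29 and 2.36 CPM in the P6H63 pair, 2.17-fold above the P6H55 pair (DESeq2 adjusted p = 7.41e-06, edgeR adjusted p = 0.123). Of the 9 Siglec lectins tested, none but these 2 had every HIE pup above every control, and Siglech, a microglial member, had 335 to 478 CPM in the HIE pups against 350 and 344 CPM in the P6H55 pair.

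Secreted and surface proteins of the innate response followed. Slpi, a secreted protease inhibitor that macrophages make in answer to LPS, had 8.67, 5.56, 8.29 and 9.26 CPM in the HIE pups, 1.6 and 1.57 CPM in the P6H55 pair and 0.778 and 0.918 CPM in the P6H63 pair. No control reached the lowest HIE pup, N5-4. Slpi rose by 2.71 ± 0.304 (log2, SE) against all controls (edgeR adjusted p = 0.0306) and by 2.33 ± 0.241 against the P6H55 pair (edgeR adjusted p = 0.0135). Ly6e, an interferon-induced membrane protein, had 422, 499, 416 and 471 CPM in the HIE pups, 237 and 155 CPM in the P6H55 pair and 186 and 184 CPM in the P6H63 pair. It rose against all controls by 1.24 ± 0.151 (edgeR adjusted p = 0.0483), but the P6H55 contrast, 1.2 ± 0.165, missed the threshold (edgeR adjusted p = 0.0575). Without N5-3 and P6H55-12 neither gene was called against all controls (edgeR adjusted p = 0.212 for both). On P14, Ly6e had 187 to 408 CPM in HIE animals and 194 to 249 CPM in controls.

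Gpx3, the secreted glutathione peroxidase, had 128, 106, 116 and 135 CPM in the HIE pups, 56.8 and 44.3 CPM in the P6H55 pair and 19.1 and 19.2 CPM in the P6H63 pair. It rose 2.4-fold against the P6H55 pair (log2 difference 1.26 ± 0.129, edgeR adjusted p = 0.0133), whereas the spread between the control pairs left the contrast with all controls at an edgeR adjusted p of 0.15. Klf10, a transcription factor induced early by TGF-beta, had 106, 113, 94.5 and 103 CPM in the HIE pups and 62.7 to 67.4 CPM in the 4 controls. The controls of both pairs lay within a few CPM of each other, and Klf10 rose by 0.675 ± 0.0826 against all controls (edgeR adjusted p = 0.0484). Kcnma1, the large-conductance calcium-activated potassium channel, had 24.1 to 24.8 CPM in the HIE pups and 14.7 to 17.5 CPM in the controls (0.72 ± 0.0827 against the P6H55 pair, edgeR adjusted p = 0.0277). Rcbtb2 had 123 to 133 CPM in the HIE pups, 85.4 and 79.1 CPM in the P6H55 pair and 61.7 and 70.2 CPM in the P6H63 pair (0.618 ± 0.0761 against the P6H55 pair, edgeR adjusted p = 0.036). Leaving out each pup in turn, the quasi-likelihood call against the P6H55 pair held in 6 of 8 fits for Slpi and Gpx3, in 4 for Klf10 and in 3 for Kcnma1 and Rcbtb2. The call against all controls held in 1 of 8 fits each for Slpi, Ly6e, Klf10 and Acer2, with edgeR adjusted p values of up to 0.16, 0.277, 0.293 and 0.25. The size of the Klf10, Kcnma1 and Rcbtb2 differences was under 2-fold, and without N5-3 and P6H55-12 the edgeR adjusted p values of these 3 against the P6H55 pair were 0.554, 0.482 and 0.67. Scaled to the microglia markers, which differ most from the P6H63 pair, the contrast with all controls turned negative for Ly6e, Klf10, Gpx3, Rcbtb2, Rps3a1 and Kcnma1. That scaling shifted most genes the same way, with 18535 of 22517 called lower and 3 higher.

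**Figure D1:**
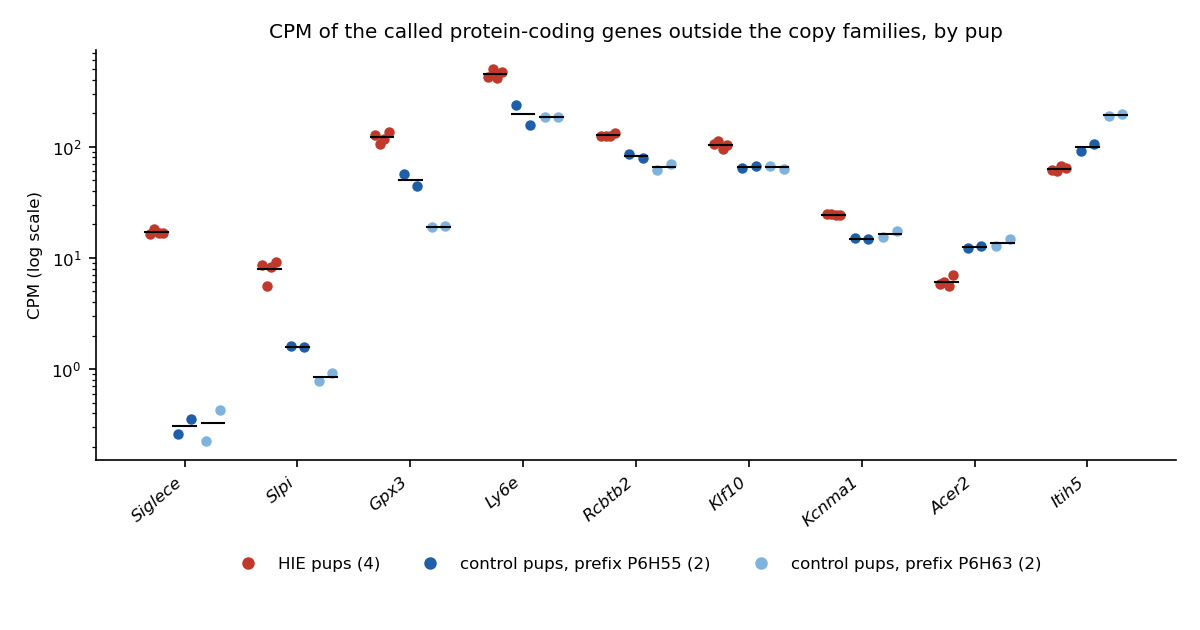
Level in CPM (log axis) of 9 called protein-coding genes in each pup, with HIE pups in red, P6H55 controls in dark blue and P6H63 controls in light blue. Black bars are group means, and the HIE pups do not overlap the controls for any of the 9, with Siglece at 16.4 to 18.2 CPM against 0.224 to 0.43 CPM.

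Among the lower genes, Acer2, an alkaline ceramidase that releases sphingosine from ceramide, had 5.83, 6.02, 5.52 and 7.0 CPM in the HIE pups, 12.1 and 12.8 CPM in the P6H55 pair and 12.7 and 14.8 CPM in the P6H63 pair. All 4 controls lay near one another, and Acer2 fell by 1.1 (log2) with an SE of 0.124 against all controls (edgeR adjusted p = 0.0306). Of the 19 genes tested for sphingolipid turnover, 5 had every HIE pup below every control and 6 had every HIE pup above. Among all tested genes these shares were 8.47% and 8.5%. A margin of 1.5-fold below each control pair held for 3, Acer2, Sphk1 and Sgms2, beside 2.82% of all tested genes. Sphk1, a sphingosine kinase, had 1.38 to 2.66 CPM against 4.1 and 3.34 CPM in the P6H55 pair (DESeq2 adjusted p = 0.0339). Sgms2, a sphingomyelin synthase, had 16.0 to 19.1 CPM against 28.4 and 30.4 CPM (DESeq2 adjusted p = 0.00266). Itih5, an extracellular hyaluronan-binding protein, had 60.4 to 67.3 CPM in the HIE pups, 91.0 and 106 CPM in the P6H55 pair and 189 and 198 CPM in the P6H63 pair (edgeR adjusted p = 0.036 against the P6H55 pair). Without N5-3 and P6H55-12, the edgeR adjusted p against the P6H55 pair was 0.626 for Acer2 and 0.616 for Itih5.

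Among the other called genes, the non-coding Gm16589 rose by 3.02 to 3.48 (log2) against all controls as each pup was left out. Its call held in 2 of these 8 fits. Pde1b was called against the P6H55 pair but not the same way against both, with log2 differences of -0.885 to -0.758 from that pair in the same fits. The rest belong to families of near-identical copies, whose reads RSEM divides and whose single values are uncertain. Cwc22, a spliceosome factor, had 27.8 to 29.5 CPM in the HIE pups, 529 and 315 CPM in the P6H55 pair and 264 and 212 CPM in the P6H63 pair, a fall of 3.53 (log2, SE 0.286) against all controls (edgeR adjusted p = 0.00311). Summed with its 6 called copies the family had 31.2 ± 0.736 CPM in the HIE pups (SD, n = 4), a mean of 501 CPM in the P6H55 pair and 285 CPM in the P6H63 pair. Every HIE pup lay at one low level. Without N5-3 and P6H55-12, Cwc22 (edgeR adjusted p = 0.117) and 5 of the copies (edgeR adjusted p = 0.0853 each) were no longer called against all controls, while Cwc22rt6 was (edgeR adjusted p = 0.043). All 7 stayed called against the P6H55 pair. On P14, Cwc22 spanned 27 to 577 CPM among HIE animals, 30 to 540 CPM among controls and 29.3 to 559 CPM in the hypoxia group, so that low and high animals stood in each treatment.

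Rps3a2 and Rps3a3, copies of the ribosomal protein gene Rps3a1, were low in every HIE pup too. Rps3a2 had 4.15 to 5.08 CPM in the HIE pups and 74.7 to 134 CPM in the controls (edgeR adjusted p = 0.000233), while Rps3a1 had 497 to 578 CPM against 314 and 347 CPM in the P6H55 pair (edgeR adjusted p = 0.0473). The sum of the 3 was 542 ± 37.7 CPM in the HIE pups and 541 CPM in the P6H55 pair, a difference below the SD of the HIE pups, but 320 CPM in the P6H63 pair. On P14, Rps3a2 had 2.64 to 89.5 CPM among HIE animals, 2.17 to 107 CPM among controls and 1.79 to 3.54 CPM in the hypoxia group.

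Because few genes passed the test, gene groups were described by a simple rule chosen after that was seen. Of the list members, the quasi-likelihood test called Siglece, Slpi, Ly6e, Klf10 and Acer2 alone against all controls or the P6H55 pair. Any other gene below that carries a DESeq2 adjusted p was not called by edgeR in those contrasts. A gene counted as higher when every HIE pup lay above every control and its mean log2 CPM was at least log2 of 1.5 above each control pair, and as lower in the mirror case. By this rule 196 genes were higher (0.87%) and 635 lower (2.82%). Against the P6H55 pair alone, the same margin without overlap held for 343 genes above (1.52%) and 1003 below (4.45%). Of the 196, 98 also rose against both pairs with DESeq2, as 177 of the 635 fell. Absence of overlap alone held for 1913 genes above (8.5%) and 1907 below (8.47%). Without P6H55-7 the rule gave 577 higher and 1568 lower genes, and without N5-3 and P6H55-12 it gave 388 and 723.

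**Figure D2:**
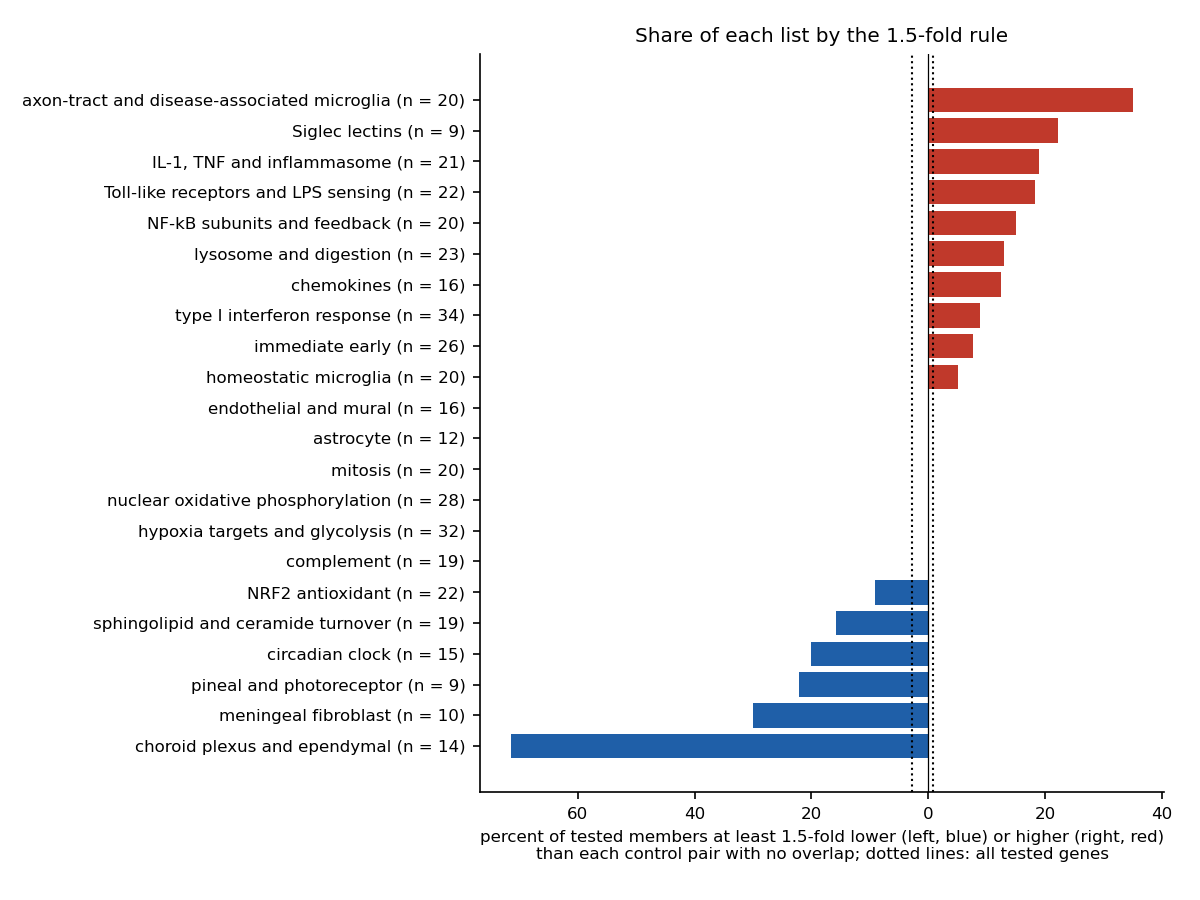
Percent of the tested members of each gene list that were at least 1.5-fold higher (right, red) or lower (left, blue) in HIE than in each control pair with no overlap, for lists with at least 2 such members and 7 lists with fewer. Dotted lines give the share among all tested genes, 0.87% higher and 2.82% lower, and the choroid plexus list (71.4% lower) and the axon-tract and disease-associated list (35% higher) lie farthest out. Against the P6H55 pair alone, 1.52% of all tested genes were higher and 4.45% lower, with unchanged shares for those lists.

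Genes of axon-tract and disease-associated microglia held the most higher members. Of 20 tested, 7 were higher by the rule: Clec7a, Itgax, Gpnmb, Csf1, Igf1, Ctsb and Ctsl. Against the P6H55 pair alone 7 were higher and 0 lower, beside 1.52% and 4.45% of all tested genes. Clec7a, the beta-glucan receptor Dectin-1, had 63.5, 105, 43.8 and 85.8 CPM in the HIE pups, 25.9 and 21.7 CPM in the P6H55 pair and 6.91 and 5.18 CPM in the P6H63 pair (2.98-fold above the P6H55 pair, DESeq2 adjusted p = 4.97e-06). Itgax, the integrin CD11c, had 185, 127, 175 and 219 CPM in the HIE pups, 73.6 and 46.6 CPM in the P6H55 pair and 22.7 and 19.4 CPM in the P6H63 pair (2.95-fold, DESeq2 adjusted p = 2.06e-08, edgeR adjusted p = 0.0959). Igf1, a growth factor for neurons and oligodendrocytes, had 158 to 243 CPM in the HIE pups against 143 and 119 CPM in the P6H55 pair. Both N8 pups lay above both N5 pups for Igf1 and for the secreted growth factor Csf1, at 532 and 533 CPM against 497 and 452 CPM.

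Other genes of the same list did not separate. Spp1, osteopontin, had 376 to 1125 CPM in the HIE pups and 723 and 511 CPM in the P6H55 pair, and Apoe, the lipid carrier, had 3212 to 4482 CPM against 3243 and 4242 CPM. The list's median log2 difference was 0.535 against the P6H55 pair, beside -0.0308 over all tested genes and 0.329 over the microglia purity markers. When the pups were scaled to equal levels of those markers, 2 of 20 members, Clec7a and Itgax, remained above the P6H55 pair by the rule (0.449% of all tested genes did). Without the control pup P6H55-12 the count was 4 of 20 and without P6H55-7 it was 11.

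Lysosomal proteases and glycosidases digest what microglia take up. Ctsb, the protease cathepsin B, had 5079, 4990, 6484 and 6219 CPM in the HIE pups, 4341 and 2368 CPM in the P6H55 pair and 1088 and 813 CPM in the P6H63 pair (DESeq2 adjusted p = 0.0285). Ctsl, cathepsin L, had 715 to 854 CPM in the HIE pups and 508 and 513 CPM in the P6H55 pair (DESeq2 adjusted p = 3.95e-07). Hexa, a subunit of hexosaminidase, had 610 to 646 CPM in the HIE pups and 454 and 323 CPM in the P6H55 pair (DESeq2 adjusted p = 9.53e-05). These were the 3 of 23 lysosomal genes higher by the rule, beside 0.87% of all tested genes. A higher mean than the P6H55 pair held for 21 of the 23, beside 45.3% of all tested genes and all 16 microglia purity markers. After scaling to those markers 11 of 23 lay above that pair, beside 9.72% of all tested genes and 9 of the 16 markers. Without P6H55-12 the count by the rule was 1 of 23.

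In the list of Toll-like receptors and LPS sensing, 4 of 22 genes were higher by the rule, beside 0.87% of all tested genes. Slpi was among them. Against the P6H55 pair alone 4 were higher and 0 lower, beside 1.52% and 4.45% of all tested genes. Tlr2, the receptor of bacterial lipoproteins, had 182, 204, 200 and 192 CPM in the HIE pups, 123 and 96.9 CPM in the P6H55 pair and 28.7 and 20.2 CPM in the P6H63 pair (1.78-fold, DESeq2 adjusted p = 2.55e-05). Its partner Tlr1 had 57.6 to 93.2 CPM in the HIE pups and 51.6 and 43.4 CPM in the P6H55 pair (DESeq2 adjusted p = 0.00503), and Cd14, which hands LPS to its receptor, had 274 to 337 CPM against 200 and 167 CPM (DESeq2 adjusted p = 0.00184). Tlr4, the LPS receptor itself, had 100 to 111 CPM in the HIE pups and 108 and 76.5 CPM in the P6H55 pair, with P6H55-7 inside the HIE range (edgeR adjusted p = 0.543). After marker scaling, Slpi alone of these 4 stayed above the P6H55 pair by the rule.

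Among cytokines, the IL-1, TNF and inflammasome list had 4 of 21 members higher by the rule, Il1a, Ptgs2, Casp4 and Osm. By the same rule 0.87% of all tested genes were higher. Il1a, an alarm cytokine, had 301, 401, 236 and 250 CPM in the HIE pups, 139 and 202 CPM in the P6H55 pair and 28.3 and 16.2 CPM in the P6H63 pair (DESeq2 adjusted p = 0.0457, edgeR adjusted p = 0.244). Ptgs2, the inducible cyclooxygenase of prostaglandin synthesis, had 33.9 and 42.9 CPM in the N5 pups, 65.3 and 77.4 CPM in the N8 pups and 31.7 and 20.6 CPM in the P6H55 pair. Tnf did not separate, with 139 to 253 CPM in the HIE pups and 157 and 184 CPM in the P6H55 pair (edgeR adjusted p = 0.717). Il1b had 160 to 210 CPM in the HIE pups and 130 and 136 CPM in the P6H55 pair, 1.4-fold (DESeq2 adjusted p = 0.024). Without P6H55-12, 2 of 21 were higher by the rule, and with the microglia markers held equal 0 of 21 met the rule against the P6H55 pair.

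Of 20 NF-kB subunits and feedback genes, 3 were higher by the rule, Cd83, Nfkbie and Tnfaip2, beside 0.87% of all tested genes. All 20 had a higher mean than the P6H55 pair, beside 45.3% of all tested genes and all 16 microglia purity markers. After marker scaling 11 of 20 did, beside 9 of the 16 markers. Cd83, a maturation marker of antigen-presenting cells, had 868 to 1163 CPM in the HIE pups, 626 and 485 CPM in the P6H55 pair and 114 and 64.3 CPM in the P6H63 pair (DESeq2 adjusted p = 0.00948). Tnfaip2, a gene induced by TNF, had 36.9 to 42.5 CPM against 21.4 and 19.3 CPM in the P6H55 pair and was the one that met the rule after marker scaling (DESeq2 adjusted p = 3.1e-08). Of 16 chemokines tested, Ccl4 and Ccl9 were higher by the rule, beside 0.87% of all tested genes. Ccl4, a chemokine that draws in leukocytes, had 248 to 328 CPM in the HIE pups and 195 and 113 CPM in the P6H55 pair, and Ccl9 157 to 250 CPM against 140 and 99.1 CPM (DESeq2 adjusted p = 0.0419 and 0.0164). The count was 4 of 16 without P6H55-7 and 1 of 16 without P6H55-12.

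Interferon response genes lay above the P6H55 pair by small amounts. All 34 tested had a higher mean in HIE than in that pair, with a median log2 difference of 0.442. So did 45.3% of all tested genes and all 16 microglia purity markers. Against the P6H63 pair 27 were higher and 7 lower. Higher by the rule were 3 of 34, Ly6e, Ifit3 and Mx1, beside 0.87% of all tested genes. Ifit3, an antiviral RNA-binding protein, had 5.77 to 7.55 CPM in the HIE pups, 3.6 and 3.64 CPM in the P6H55 pair and 5.35 and 3.08 CPM in the P6H63 pair. The summed list had 947 to 1060 CPM in the HIE pups, 772 CPM in P6H55-7, 535 CPM in P6H55-12 and 548 and 494 CPM in the P6H63 pair. The P6H55 pups differed from each other by more than P6H55-7 did from the lowest HIE pup, and 13 of 34 met the rule without P6H55-7 and 2 of 34 without P6H55-12. After marker scaling, 25 of 34 stayed above the P6H55 pair, beside 9.72% of all tested genes and 9 of the 16 markers.

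**Figure D3:**
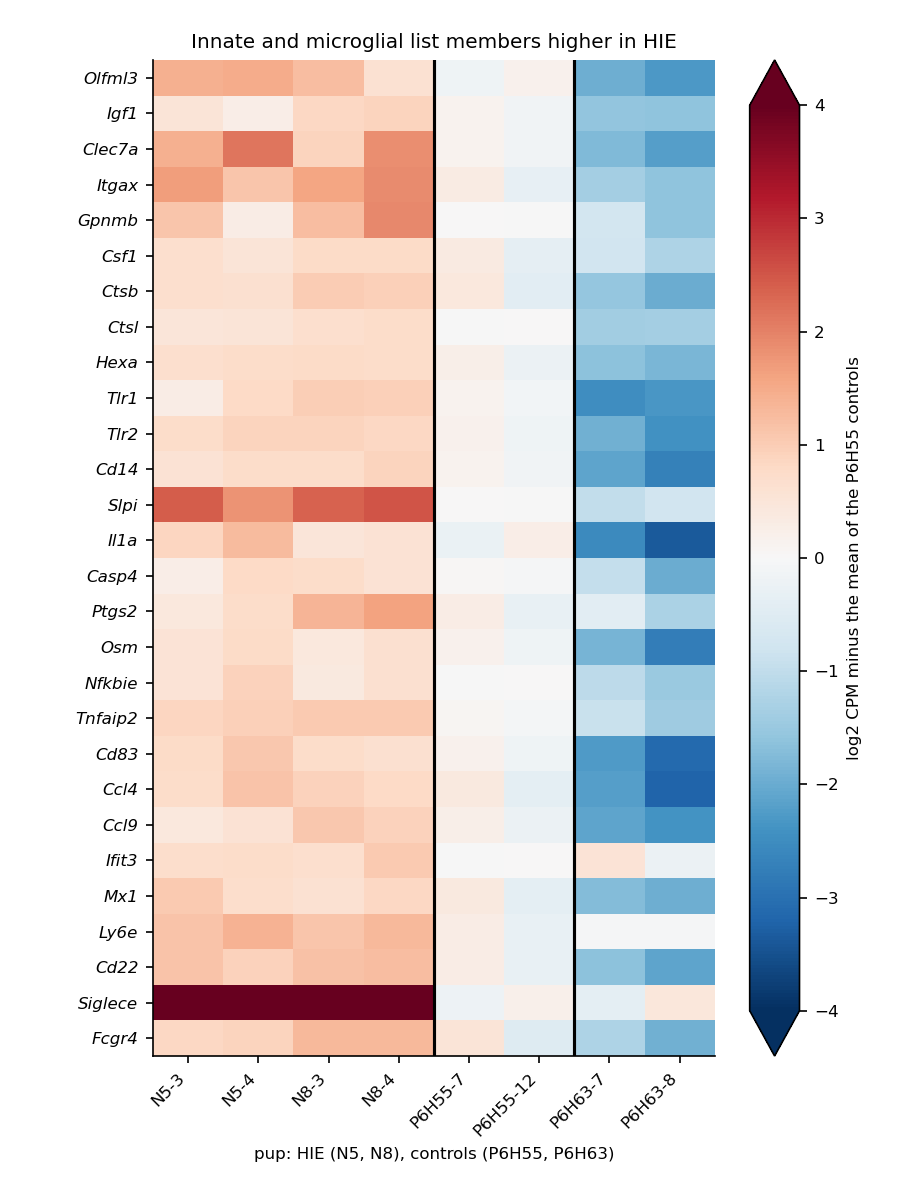
Heat map of the microglial and innate list members higher by the rule, as log2 CPM minus the mean of the P6H55 controls, in columns for the 4 HIE pups, the P6H55 pair and the P6H63 pair. Most rows are within 2 log2 units above the P6H55 pair in the HIE pups, Slpi and Siglece stand out, and the P6H63 pair is below it in most rows.

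Among microglial identity genes, 1 of 20 was higher by the rule. Olfml3, a secreted matrix protein of homeostatic microglia, had 523, 543, 462 and 299 CPM in the HIE pups, 175 and 220 CPM in the P6H55 pair and 50.9 and 39.4 CPM in the P6H63 pair (2.27-fold, DESeq2 adjusted p = 2.45e-05, edgeR adjusted p = 0.158). Tmem119, another homeostatic marker, had 402 to 594 CPM against 446 and 362 CPM in the P6H55 pair. No homeostatic gene was lower by the rule, which a microglial gene can hardly meet because it must also fall below the microglia-poor P6H63 pair. Against the P6H55 pair alone 1 of 20 was lower, Slc2a5, a fructose transporter of microglia. It had 17.7, 18.3, 15.7 and 7.47 CPM in the HIE pups and 74.8 and 63.2 CPM in the P6H55 pair. The P6H63 pair had 12.8 and 5.79 CPM. Slc2a5 fell 4.91-fold against the P6H55 pair with DESeq2 (adjusted p = 0.00067) but was not called with edgeR (adjusted p = 0.105). Further genes with the largest differences that DESeq2 also called against both pairs were chosen after their values were seen. They included Pdcd1, the inhibitory receptor PD-1, with 16.3, 12.5, 19.8 and 10.2 CPM in the HIE pups, 1.86 and 5.22 CPM in the P6H55 pair and 2.12 and 1.86 CPM in the P6H63 pair (4.54-fold above the P6H55 pair, DESeq2 adjusted p = 7.58e-06). Fcgr4, an activating Fc receptor, had 4.95 to 6.92 CPM against 4.02 and 1.94 CPM, and Hpse, the enzyme heparanase, 35.2 to 72.3 CPM against 28.6 and 17.8 CPM.

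Targets of hypoxia, the later insult, were described in the same way. Of 32 hypoxia and glycolysis genes none met the rule, with a median log2 difference of 0.104 against the P6H55 pair and 0.00473 against the P6H63 pair. Ldha, lactate dehydrogenase, had 207 to 283 CPM in the HIE pups, 229 and 184 CPM in the P6H55 pair and 209 and 198 CPM in the P6H63 pair, overlapping both. Vegfa, the vascular growth factor induced by HIF, had 14.7 to 17.3 CPM in the HIE pups and 16.9 and 25.3 CPM in the P6H55 pair (edgeR adjusted p = 0.265). Slc2a1, the glucose transporter of brain endothelium, had 156 to 191 CPM in the HIE pups, 217 and 194 CPM in the P6H55 pair and 412 and 375 CPM in the P6H63 pair. DESeq2 called 2 of the 32 higher against both pairs, Pfkfb3 and P4ha1, beside 1.8% of all tested genes. Pfkfb3 had 212 to 268 CPM against 195 and 139 CPM, and P4ha1 112 to 128 CPM against 104 and 89.4 CPM.

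Genes of oxidative phosphorylation, the unfolded protein response, apoptosis control, S phase, mitosis and complement held no member that met the rule. Of 20 mitotic genes 8 had every HIE pup above every control, beside 8.5% of all tested genes. DESeq2 called 4 of the 20 higher against both pairs, beside 1.8% of all tested genes. An example was Plk1, the mitotic kinase, at 42.5 to 44.8 CPM against 37.5 and 32.1 CPM in the P6H55 pair. Of 26 immediate early genes 2 were higher by the rule, Atf3 and Rgs1, beside 0.87% of all tested genes. Fos, a transcription factor induced within minutes, had 2853 to 3738 CPM against 2946 and 2846 CPM. Atf3, a stress-induced transcription factor, had 461 to 632 CPM against 328 and 337 CPM (DESeq2 adjusted p = 0.00026). Of 15 clock genes, 14 had a lower mean than each control pair. Of all 22517 tested genes, 12328 had a lower mean than the P6H55 pair and 11650 than the P6H63 pair. By the rule 3 clock genes were lower, Npas2 and Hlf among them, beside 2.82% of all tested genes. Hlf, an output transcription factor of the clock, had 10.9 to 16.4 CPM in the HIE pups and 22.7 and 21.2 CPM in the P6H55 pair (DESeq2 adjusted p = 0.0383). With DESeq2 size factors 1 of the 15 met the rule. Nqo1, an NRF2 target enzyme, had 2.2 to 3.2 CPM against 5.53 and 6.39 CPM, and Slc7a11, the cystine transporter, 35.5 to 47.5 CPM against 58.5 and 78.7 CPM (DESeq2 adjusted p = 0.000772 and 0.00528), the 2 of 22 NRF2 genes that were lower by the rule, of which 1 was left without P6H55-12.

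The group with the most lower members was not microglial. The list of 14 genes covers the choroid plexus, whose epithelium makes cerebrospinal fluid, and the ciliated ependymal cells that line the ventricles. By the rule 10 were lower (71.4%) and none higher. Against the P6H55 pair alone 10 were lower as well, beside 4.45% of all tested genes. The other 4 were Foxj1, Ccdc153 and Tmem212, genes of ciliated cells, and Rarres2, whose log2 differences from the P6H55 pair were -0.08, -0.18, 0.06 and 0.39. Ttr, the thyroxine carrier transthyretin, had 1091, 1253, 1717 and 2063 CPM in the HIE pups, 3700 and 4206 CPM in the P6H55 pair and 3247 and 8558 CPM in the P6H63 pair. The N5 pups lay below the N8 pups and both below all controls (2.66-fold below the P6H55 pair, DESeq2 adjusted p = 0.062, edgeR adjusted p = 0.185). Slc4a5, a bicarbonate transporter of the same epithelium, had 11.1, 11.1, 15.7 and 18.7 CPM in the HIE pups against 32 and 41.2 CPM in the P6H55 pair (DESeq2 adjusted p = 0.00253). Clic6 and Kl, the gene of klotho, had 18.4 to 33.3 CPM against 47.1 and 72.6 CPM and 14.6 to 20.4 CPM against 30.9 and 39.5 CPM (DESeq2 adjusted p = 0.0129 and 0.0386). Both N5 pups lay below both N8 pups for 9 of these 10 genes, F5 being the other one.

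The count stood at 10 of 14 with the markers held equal, at 11 without P6H55-7 and at 9 without N5-3 and P6H55-12. The summed list had 1320 to 2360 CPM in the HIE pups, 4060 and 4690 CPM in the P6H55 pair and 3960 and 9720 CPM in the P6H63 pair. The part of the choroid plexus tissue carried into each preparation was not tested. Wfikkn2, a secreted protease inhibitor, had 5.58, 6.03, 13 and 11.4 CPM in the HIE pups, 32 and 61.2 CPM in the P6H55 pair and 32.9 and 49.0 CPM in the P6H63 pair, with the same order of N5 and N8 pups and the largest difference among the lower protein-coding genes named outside the copy families (5.25-fold below the P6H55 pair, DESeq2 adjusted p = 0.000495).

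**Figure D4:**
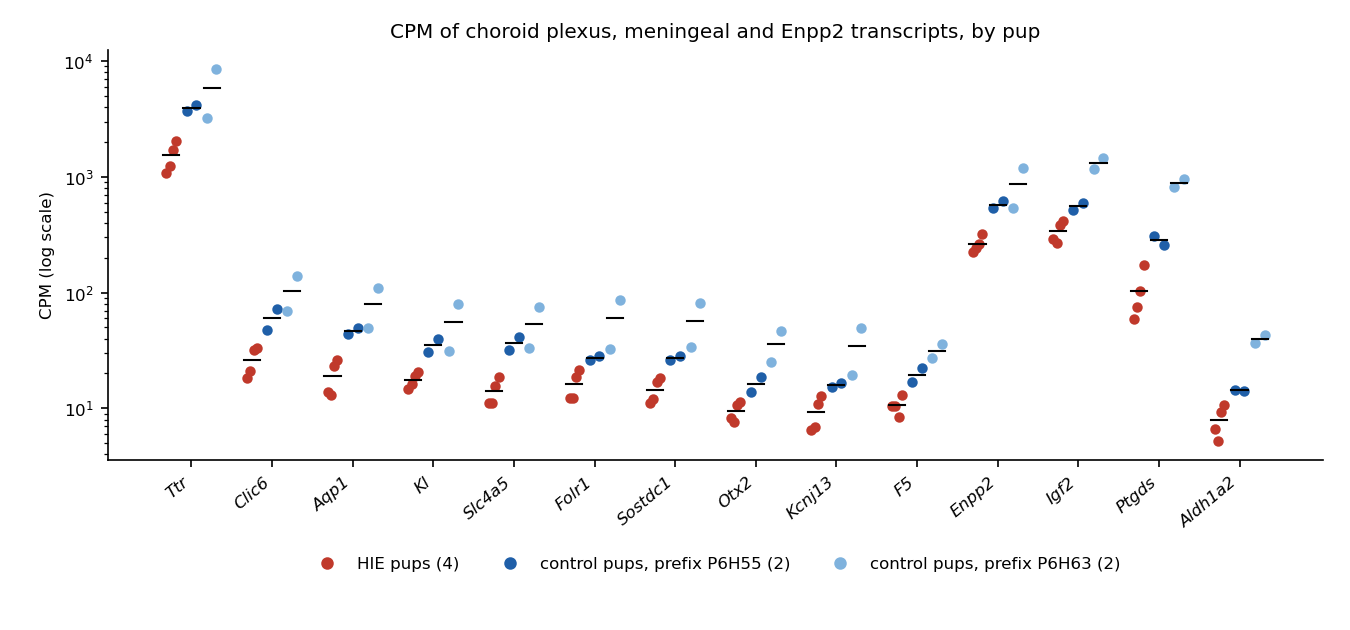
Level in CPM (log axis) of 10 choroid plexus genes, Enpp2 and 3 meningeal genes in each pup, with HIE pups in red and both control pairs in blue, and black bars for group means. All HIE pups lie below all controls for each of the 14 genes, as for Ttr at 1091 to 2063 CPM against 3247 to 8558 CPM.

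Meningeal and endothelial transcripts were lower too. Against the P6H55 pair their list medians were -0.318 and -0.282 (log2), beside -0.858 for the choroid plexus list. Against the P6H63 pair the medians were -2.03, -1.44 and -1.78 in the same order. Of 10 meningeal fibroblast genes 3 were lower by the rule, Igf2 among them, beside 2.82% of all tested genes. Igf2, a fetal growth factor, had 267 to 420 CPM in the HIE pups, 520 and 595 CPM in the P6H55 pair and 1177 and 1468 CPM in the P6H63 pair (DESeq2 adjusted p = 0.0189). Ptgds, prostaglandin D synthase, had 59.0, 75.8, 103 and 173 CPM in the HIE pups against 307 and 259 CPM. Of 16 endothelial and mural genes 12 had every HIE pup below every control, beside 8.47% of all tested genes, but none met the rule. Cldn5, a tight junction protein, had 107 to 151 CPM against 164 and 179 CPM in the P6H55 pair and 415 and 302 CPM in the P6H63 pair. The astrocyte list summed to 1500 to 1990 CPM in the HIE pups, 1610 and 2320 CPM in the P6H55 pair and 4610 and 5690 CPM in the P6H63 pair, with 0 of 12 genes by the rule.

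Markers of blood-borne cells mostly overlapped between HIE and the P6H55 pair. Of 13 neutrophil genes Csf3r and of 10 monocyte genes Plac8 were higher by the rule, beside 0.87% of all tested genes. A lower mean than the P6H55 pair held for 11 of the 13 (median log2 difference -0.587) and 6 of the 10. The latter is near the share of all tested genes, 12328 of 22517. S100a8, an abundant neutrophil protein, had 9.81 to 31.2 CPM in the HIE pups and 24.3 and 31.8 CPM in the P6H55 pair, and Ccr2, the monocyte chemokine receptor, had 3.63 to 17.7 CPM against 10.1 and 7.5 CPM. Of the 15 T, NK and B cell markers 6 had enough counts to be tested, and these summed to 16.5 to 27 CPM in the HIE pups and the P6H55 pair. Mrc1, the mannose receptor of border-associated macrophages, had 1362 to 2192 CPM in the HIE pups and 1961 and 1466 CPM in the P6H55 pair (edgeR adjusted p = 0.993). Folr2, a folate receptor of the same macrophages, was the 1 of 14 higher by the rule, at 30.9 to 53.6 CPM against 24.4 and 16.2 CPM (DESeq2 adjusted p = 0.00188).

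**Figure D5:**
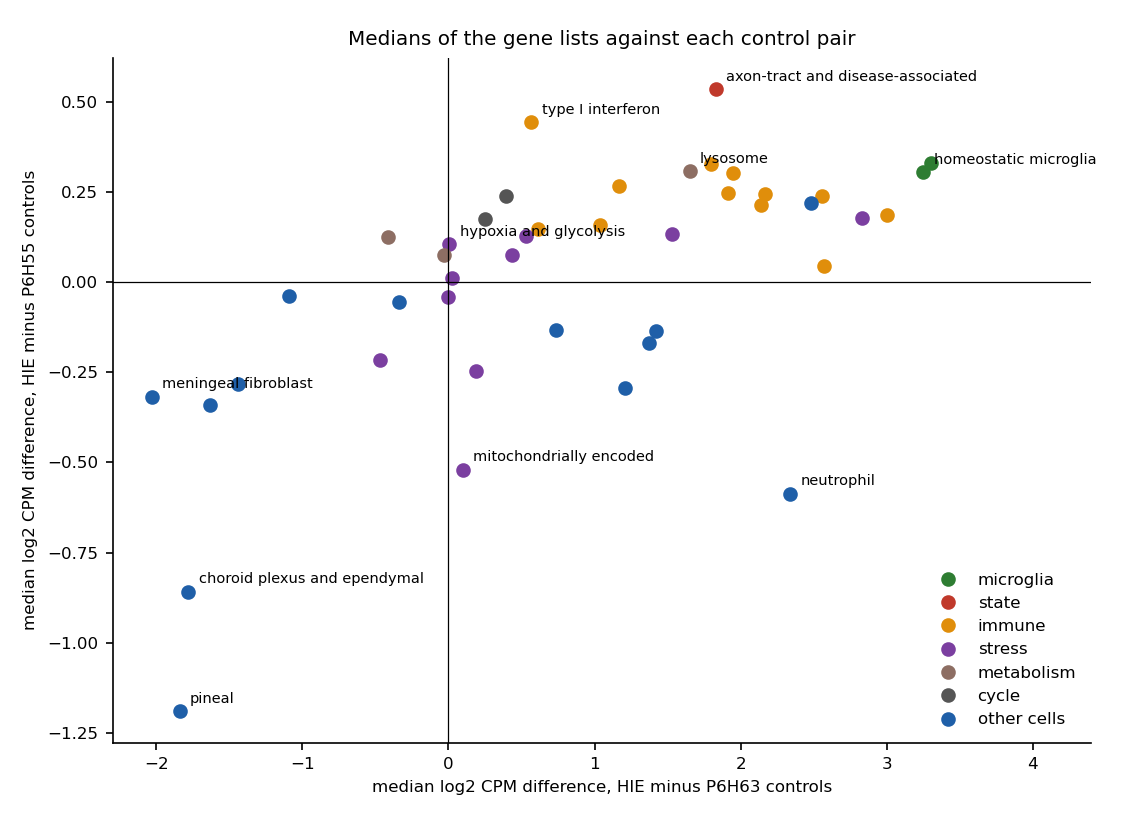
Median log2 CPM difference of each gene list between HIE and the P6H63 pair (x axis) and the P6H55 pair (y axis), 1 point a list, coloured by class, without the sex chromosome genes. The homeostatic microglia list lies at 3.25 on the x axis and 0.304 on the y axis, the axon-tract and disease-associated list is highest on the y axis at 0.535, and the choroid plexus list lies at -1.78 and -0.858. The lowest point is the pineal and photoreceptor list, with 9 of 16 members tested.

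The promoter motifs were counted over all genes of the rule. The PU.1 motif lay in 8 of 150 promoters of the higher protein-coding genes (5.33%), in 8 of 424 of the lower ones (1.89%) and in 338 of 15969 tested ones (2.12%). The 8 were Ly6e, Cmah, Fcrlb, Ifit1bl1, Kcnj14, Phf11a, Tagap and Tspan32. The interferon motif lay in 10% of the higher, 7.31% of the lower and 7.21% of all promoters, and the NF-kB motif in 3.33%, 4.95% and 3.4%. The E-box lay in 4.67%, 4.95% and 7.29%. These are matches of letters in a short window and no test of binding.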

How the data were processed

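Bulk libraries of CD11b+ cells from 8 P7 pups were analysed, and 14 samples collected on P14 were used for levels of a few genes. The authors mapped reads to GRCm39 with Sentieon's STAR and counted with RSEM. The deposited values are expected counts per gene without scaling for library size, and 84.2 to 88% of them were whole numbers. They were rounded to whole numbers here. RSEM divides reads among similar genes. Of 56691 identifiers 56017 matched GENCODE M39 and 674 did not.

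The main test was edgeR 4.0.16 (R 4.3.3) with its quasi-likelihood fit, TMM scaling, the default removal of low-count genes and a Benjamini-Hochberg threshold of 0.05. One fit held HIE and all controls, a second held 3 groups (HIE, P6H55, P6H63). The study's methods give edgeR and DESeq2 without covariates. DESeq2 1.42.0 was an alternative, limma 3.58.1 a dependency. CPM values are TMM-scaled, and log2 CPM used a prior count of 2. The SE of a log2 difference was taken from its quasi-likelihood statistic. A floor of 3 counts covers counting error only.

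Members, lists and tests were chosen with earlier results of these data known. Named genes were all calls against all controls, up to 12 per direction called against both pairs with an absolute log2 fold change of at least 1 and 1 CPM, up to 4 such list members (else the 2 highest), 5 check genes, and, added after values were seen, up to 20 protein-coding genes per direction by the 1.5-fold rule with DESeq2 support. Other genes named from the lists were chosen after their values were seen. Procedures were tested on simulated data in which both control pairs had the same means, so the gap between the real pairs was not covered. Other columns of per-sample values numbered 0. Alternatives covered scaling, filter, tool, sex and leaving out pups. For P14, libraries of the same animal were summed and scaled separately, so levels were not compared between days.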

Additional observations from a re-analysis of the deposited data

Results flagged for a closer look

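Among 26 genes tested in the 4 HIE and the 4 control pups, 52 groups in all, 9 groups held a pup far from the other 3 by Dixon's ratio, where chance gives about 1 in 20 groups. Xist had 2380 CPM in N5-3, labelled male, beside 0.109 to 0.205 CPM in the other HIE pups, and Ddx3y, a Y-linked gene, had 0 CPM there beside 81.3 to 87.1 CPM. Among the controls, Xist had 1380 CPM in P6H63-8, labelled female, beside 0.173 to 0.802 CPM in the others. Cwc22rt1, Cwc22rt2, Cwc22rt4, Cwc22rt5 and Cwc22rt7 each had 17.6 CPM in P6H55-7 beside 6.9 to 8.69 CPM in the other controls, and these copies share reads. Rcbtb2 had 133 CPM in N8-4 beside 123 to 124 CPM in the other HIE pups.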

How the results depend on the processing

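The number of calls depended on the tool and on single pups, while the direction of the named genes mostly did not. Leaving out each pup in turn, calls against all controls ranged from 10 to 5588, against the P6H55 pair from 11 to 1643 and against both pairs from 11 to 832. The 1.5-fold rule then gave 206 to 577 higher and 671 to 1568 lower genes. The high end came from leaving out P6H55-7 in each case, and the low ends against the P6H55 pair and both pairs from leaving out N5-3. DESeq2 called 3024 genes against all controls, 895 against the P6H55 pair and 675 against both. Without a filter on low counts 66 and 57 genes were called against the P6H55 pair and both pairs, and with the sex label as a covariate 13 and 12. The exact test of edgeR called 1311 genes against all controls. Scaling to the microglia markers gave 18538 calls against all controls, 3 higher and 18535 lower. Without N5-3 and P6H55-12, alternatives chosen after seeing the data, 5 genes were called against all controls and 388 were higher by the rule. At an unadjusted p under 0.05 there were 6143 genes against all controls and 3719 against the P6H55 pair. The cause of these changes was not tested. Under marker scaling the log2 difference from all controls turned negative for Ly6e (-1.17), Klf10 (-1.77), Gpx3 (-0.0249), Rcbtb2 (-1.57), Rps3a1 (-1.06) and Kcnma1 (-1.87). Over all alternatives and named called genes, 581 values kept direction and side of the threshold, 148 lost the threshold, 21 gained it and 6 reversed. Among the 581, a contrast not called in the main fit counted as kept when it stayed uncalled. The Cwc22 copies, which share reads, were counted singly. Siglece and the lower copy families held without any one pup. No paired analysis was possible because replicate numbers follow accession order and each name prefix belongs to 1 treatment. Each control pair holds 2 pups, which limits the precision of either contrast.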
